A study of Mus musculus with 18 samples.

Results

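The transcripts of 9 integrin subunits were followed in regulatory T (Treg) cells, the Foxp3-expressing CD4+ T cells that restrain immune responses, sorted from 6 sites of the mouse. The genes were taken by name: Itgae, Itgb7, Itga4, Itgb1, Itgal, Itgb2, Itgav, Itgb8 and Itga6, which are 9 of the 55487 gene IDs in the deposited tables. They are also 9 of the 27 integrin genes looked up, 18 coding alpha and 9 coding beta subunits. Poly(A) RNA was sequenced from freshly sorted Treg cells of lung, liver, bone marrow, lymph node, spleen and peripheral blood. Each site gave 3 libraries, which makes 18. All mice were wild-type and had received no treatment. Sorting gates, cell isolation, age, sex, the number of animals behind a library and whether the 3 libraries of a site came from separate animals are not given in the sources used here. The p-values therefore measure only the spread between these libraries, which may be technical.

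Integrins are heterodimers of 1 alpha and 1 beta subunit in the plasma membrane. They hold leukocytes to other cells and to matrix, and signals from inside the cell switch them between a folded, weakly binding form and an extended, strongly binding form. Alpha E pairs with beta 7 and binds E-cadherin on epithelium. Alpha 4 pairs with beta 7, whose ligand MAdCAM-1 marks gut vessels, or with beta 1, which binds VCAM-1 and fibronectin. Alpha L and beta 2 form LFA-1, the receptor for ICAM-1 by which lymphocytes stop on vessel walls and hold antigen-presenting cells. Alpha V with beta 8 releases active TGF-beta from its latent form, and alpha 6 with beta 1 binds laminin.

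Values are given in TPM, a share of a library's transcripts that allows for transcript length, so levels can be compared between genes. Differences between sites are log2 differences of TPM + 1, from a limma model over the 16694 genes that averaged 1 TPM or more at any site. A gene was called at a Benjamini-Hochberg adjusted p under 0.05. The libraries held between 14314 (liver) and 19797 (bone marrow) genes above 0 TPM. Replicates varied least in lymph node and most in liver, with median coefficients of variation of 2.55% and 10.5% over genes from 100 TPM upward. Foxp3 was present in every group, between 88.6 ± 3.39 TPM in blood (SD, n = 3) and 239 ± 2.14 in lymph node. Cd4 lay between 155 ± 3.69 TPM in blood and 403 ± 7.05 in lymph node. RNA of other blood cells was present as well. The summed TPM of 14 myeloid markers was 26574 to 27340 in the blood libraries and 47633 to 48023 in bone marrow, and from 38.8 (lymph node) to 1821 (lung) elsewhere. The summed TPM of 8 platelet and megakaryocyte markers was 2156 to 2203 in blood, 71.0 to 84.6 in bone marrow and at most 21.4 elsewhere. In bulk RNA, fewer cells of a type and less RNA per cell cannot be told apart.

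All 9 integrin genes passed the filter on low values, and all 9 were called by the F test among the 6 sites, against 68% of all genes tested. Over the 15 pairs of sites, 112 of 135 combinations of gene and pair were called, against 33.8% of the combinations over all genes. Itgb1 was called in 15 pairs, Itgal and Itgb2 in 14, Itgae and Itga6 in 13, Itga4 in 12, Itgb7 and Itgb8 in 11 and Itgav in 9. The ratio of the highest to the lowest site mean was 16.4 for Itgae, 8.47 for Itgb8 and 4.96 for Itgav. It lay between 2.38 and 3.44 for Itga4, Itgb1, Itgal, Itgb2 and Itga6, and was 1.72 for Itgb7. The site with the highest mean differed between genes: lymph node for Itgae and Itgal, liver for Itgb7 and Itgb1, blood for Itga4, Itgb2 and Itga6, lung for Itgav and spleen for Itgb8. In a fit without the blood and bone marrow libraries, chosen after seeing the data, the F test called all 9 genes, against 48.1% of all genes. Among the other 4 sites, 42 of 54 combinations of gene and pair were called, against 43 with all 18 libraries. The share of all genes over these combinations was not computed for the smaller fit. Each site has its own mean in the model, so the log2 differences among these 4 sites are the same in both fits. Only the shared spread and the adjustment over genes could change a call, so these counts do not bear on myeloid RNA. RNA of other cells remained at these 4 sites, with a mean summed TPM of 6 erythroid markers of 11468 in liver and 74.4 in lymph node.

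**Figure D1:**
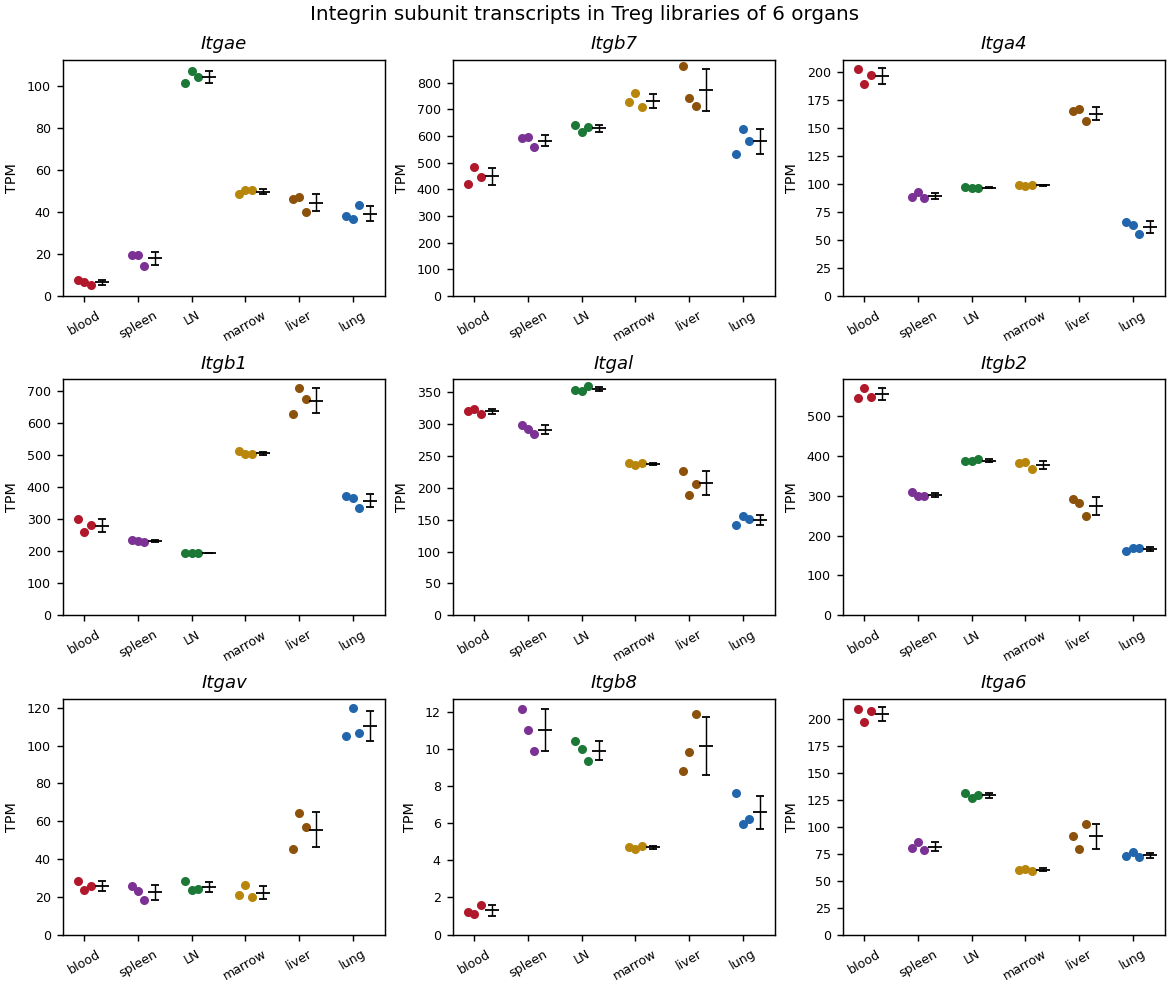
Level of each of the 9 integrin transcripts in TPM (vertical axis, from 0) in the 3 libraries of each site (dots), with the mean and SD beside them (LN, lymph node). Itgae is lowest in blood and highest in lymph node, Itgav is highest in lung, and Itgb8 is lowest in blood.

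Alpha 4 and alpha V can each pair with beta 1, and the transcripts of these 3 subunits were highest at 3 different sites. The 250 bases before the RefSeq start of these genes are shown for that reason. The table of promoters, from RefSeq on GRCm38.p6, held 5 of the 9 integrin genes, and these are the 3 whose window lies wholly outside the GENCODE M21 gene. Each is written 5′ to 3′ along the gene, all on the + strand. Itga4 is read from chr2:79255176-79255425, Itgav from chr2:83724147-83724396 and Itgb1 from chr8:128685404-128685653. Capitals mark matches, on either strand, to 3 short motifs that do not overlap here: TGTGGT of Runx factors, CAGACA of Smad factors and GGGCGG of Sp and Klf factors.
Itga4: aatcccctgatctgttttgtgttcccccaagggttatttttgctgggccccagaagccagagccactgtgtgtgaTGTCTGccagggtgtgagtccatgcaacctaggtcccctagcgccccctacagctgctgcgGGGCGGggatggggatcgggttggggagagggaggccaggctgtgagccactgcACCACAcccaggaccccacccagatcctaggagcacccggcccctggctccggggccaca
Itgav: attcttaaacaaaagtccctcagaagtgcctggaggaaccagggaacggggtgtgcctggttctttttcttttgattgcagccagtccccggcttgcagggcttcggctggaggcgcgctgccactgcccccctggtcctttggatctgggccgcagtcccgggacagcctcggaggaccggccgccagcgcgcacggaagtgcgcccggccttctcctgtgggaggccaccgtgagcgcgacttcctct
Itgb1: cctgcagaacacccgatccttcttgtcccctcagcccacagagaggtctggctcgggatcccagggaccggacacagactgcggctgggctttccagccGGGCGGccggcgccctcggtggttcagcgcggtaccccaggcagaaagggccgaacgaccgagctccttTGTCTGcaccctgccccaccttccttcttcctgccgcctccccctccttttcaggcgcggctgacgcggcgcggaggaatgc
The Itga4 window held 1 match to each motif, the Itgb1 window 1 to the Smad and 1 to the Sp and Klf motif, and the Itgav window no match. Among 32536 windows of the same length, 14.0% held the Runx, 17.0% the Smad and 33.0% the Sp and Klf letters, so such matches are common. The windows of Itgb1 and Itgav held 21 and 18 CpG dinucleotides and that of Itga4 held 6, where the median window held 6. A match describes letters and no binding was measured here.

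Itgae (ENSMUSG00000005947, chromosome 11, 73090583 to 73147446 on GRCm38) codes alpha E, also called CD103, which tethers T cells to epithelium. Its 3 libraries read 101, 107 and 104 TPM in lymph node, 48.5, 50.4 and 50.3 in bone marrow, and 46.2, 47.25 and 39.8 in liver. They read 38.1, 36.6 and 43.3 TPM in lung, 19.7, 19.7 and 14.3 in spleen, and 7.33, 6.39 and 5.40 in blood. Lymph node stood above every other library and blood below every other library, with spleen next above blood. Against blood, lymph node Itgae was higher by 3.85 on the log2 scale (SE 0.13, limma adjusted p 2.2e-12), and spleen, the nearest site, by 1.35 (adjusted p 4.86e-07). Bone marrow and liver (log2 difference 0.16, 95% interval -0.11 to 0.44) and liver and lung (0.17, -0.10 to 0.45) were not told apart. Bone marrow was called above lung (0.34, adjusted p 0.0472), but 9 of the 18 fits without 1 library lost that call, among them those without any 1 bone marrow or lymph node library, lung replicate 1 or 2, or blood replicate 2 (adjusted p up to 0.13, and from 0.0212 to 0.499 over all alternatives). Blood stayed below each other site after each library was scaled to 20 general T cell genes, by 0.33 against spleen (adjusted p 0.0382) and by at least 1.76 against the others. Haspin, a mitotic kinase gene that lies on the opposite strand inside Itgae, had means of 21.7 TPM in lymph node, 14.7 in bone marrow, 11.2 in liver and 3.13 to 4.64 elsewhere. Whether counting used the strand is not given in the sources used here, so its part in the Itgae values was not tested.

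Itgb7 (ENSMUSG00000001281, chromosome 15, 102215995 to 102231944), the partner of alpha E and alpha 4, was among the most abundant of the 9 transcripts at every site and varied least. Blood read 419, 482 and 447 TPM, spleen 594, 596 and 559, and lung 534, 626 and 582. Lymph node read 641, 615 and 632 TPM, bone marrow 728, 762 and 709, and liver 863, 743 and 714. Every blood library lay below every library of the other sites, by 0.37 (lung, limma adjusted p 0.000562) to 0.78 (liver, adjusted p 2.66e-07) on the log2 scale. This direction depended on the scale: after scaling to T cell genes, blood was higher than spleen (0.75), lymph node (0.80), liver (0.18) and lung (0.27), and -0.01 from bone marrow. As deposited, liver and bone marrow were not told apart, nor were spleen and lung or lymph node and spleen. After scaling to T cell genes, spleen was called below lung (-0.48) and bone marrow above liver (0.20). Lymph node and spleen were still not told apart. The call of bone marrow above lymph node (0.22, adjusted p 0.0379) was lost without any 1 library of either site or without blood replicate 3 (adjusted p up to 0.142, and from 1.92e-08 to 0.414 over all alternatives).

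Within a library the ratio of 2 transcripts does not depend on how TPM is scaled. With 3 libraries against 3, an exact permutation test cannot give a p below 0.10, so ratios are given as values. The Itgae to Itgb7 ratio was 0.158 to 0.175 in lymph node, 0.0121 to 0.0175 in blood and 0.0256 to 0.0332 in spleen, and 0.0535 to 0.0743 over the bone marrow, liver and lung libraries. Lymph node, spleen and blood did not overlap any other site. Thus at each site Itgb7 exceeded Itgae many times over, least so in lymph node.

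Itga4 (ENSMUSG00000027009, chromosome 2, 79255426 to 79333123) codes alpha 4, the subunit of VLA-4 and of the gut homing receptor. Blood read 203, 189 and 197 TPM and liver 166, 167 and 156. Bone marrow read 99.4, 98.3 and 98.9 TPM, lymph node 97.2, 96.3 and 96.3, spleen 88.7, 92.5 and 87.2, and lung 66.2, 63.6 and 55.6. Blood was above every other library and lung below. Blood was called higher than each of the other 5 sites, by 0.27 (liver, limma adjusted p 0.00317) to 1.66 (lung, adjusted p 1.01e-11), and by 1.23 to 2.30 after scaling to T cell genes. Myeloid RNA also stood high in blood, and the summed B cell and cytotoxic markers were highest there, with means of 532 and 562 TPM. The part of RNA from such cells in the Itga4 level was not tested. Bone marrow, lymph node and spleen were not told apart (bone marrow minus lymph node 0.03, 95% interval -0.10 to 0.17). On the T cell scale, lung was no longer called below lymph node or spleen, with means of 68.2 TPM in lung, 68.0 in lymph node and 70.6 in spleen. Cerkl, which overlaps the end of Itga4 on the opposite strand, had means of 2.49 to 7.54 TPM.

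Itgb1 (ENSMUSG00000025809, chromosome 8, 128685654 to 128733200) codes beta 1, shared by the receptors for fibronectin, collagen, laminin and VCAM-1. Liver read 628, 707 and 673 TPM, bone marrow 510, 501 and 504, and lung 371, 366 and 335. Blood read 300, 258 and 281 TPM, spleen 234, 232 and 228, and lymph node 195, 195 and 193. The sites formed 6 steps without overlap, and each neighbouring pair was called, the smallest step being 0.25 between spleen and lymph node (limma adjusted p 0.00758). Liver was 1.78 above lymph node on the log2 scale (SE 0.06, adjusted p 1.89e-12), and 2.11 after scaling to T cell genes. On that scale the order of blood and lung turned, with blood 0.29 above lung, and bone marrow was no longer called below liver or above blood. Itga4 to Itgb1 was 0.678 to 0.734 in blood, 0.494 to 0.499 in lymph node, 0.379 to 0.399 in spleen, and 0.166 to 0.264 over the bone marrow, liver and lung libraries. Beta 1 transcript was thus in the largest excess over alpha 4 at the 3 sites with the most Itgb1 as deposited. Itgb1 is itself the denominator of this ratio. On the T cell scale blood, where the excess was smallest, had more Itgb1 than lung (means of 482 and 395 scaled TPM). The summed TPM of 6 erythroid markers was also highest in liver (mean 11468), next in bone marrow (6419) and lowest in lymph node (74.4). Unlike Itgb1 as deposited, this sum was higher in blood (2928) than in lung (1466). The part of erythroid RNA in the Itgb1 level was not tested.

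Itgal (ENSMUSG00000030830, chromosome 7, 127296260 to 127335138) codes alpha L, the LFA-1 chain found on all lymphocytes. Lymph node read 354, 353 and 359 TPM, blood 320, 324 and 316, and spleen 298, 292 and 284. Bone marrow read 238, 236 and 239 TPM, liver 227, 189 and 206, and lung 141, 155 and 152. Lung was lowest in every comparison, by 0.47 (liver, limma adjusted p 1.09e-05) to 1.25 (lymph node, adjusted p 6.91e-11). The call of lymph node above blood was narrow (0.15, adjusted p 0.0492). It was lost in 14 of the 18 fits without 1 library, those of any blood, spleen, lymph node or bone marrow library, liver replicate 3 or lung replicate 3 (adjusted p up to 0.127), and it turned to 1.14 higher in blood on the T cell scale (over all alternatives the adjusted p ran from 1.98e-11 to 0.23). The call of bone marrow above liver (0.20, adjusted p 0.0123) was lost without liver replicate 2 (adjusted p 0.0513, and from 2.62e-06 to 0.625 over all alternatives).

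Itgb2 (ENSMUSG00000000290, chromosome 10, 77530252 to 77565708) codes beta 2, CD18, which pairs with alpha L in lymphocytes and with alpha M and alpha X in myeloid cells. Blood read 545, 572 and 549 TPM, lymph node 387, 387 and 392, and bone marrow 382, 385 and 367. Spleen read 309, 301 and 300 TPM, liver 293, 282 and 250, and lung 160, 169 and 169. Blood was highest and lung lowest without overlap, and blood exceeded the other sites by 0.51 (lymph node, limma adjusted p 7.3e-07) to 1.74 (lung, adjusted p 4.13e-13). Lymph node and bone marrow were not told apart (0.04, 95% interval -0.07 to 0.15). The call of spleen above liver (0.14, adjusted p 0.0448) was lost in 13 of the 18 fits without 1 library, those of any blood, spleen, lymph node or bone marrow library or liver replicate 3 (adjusted p up to 0.186, and from 0.00623 to 0.789 over all alternatives).

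The Itgal to Itgb2 ratio was 0.566 to 0.588 in blood and 0.614 to 0.65 in bone marrow. It was 0.671 to 0.823 in liver, 0.88 to 0.918 in lung, 0.9125 to 0.9165 in lymph node and 0.95 to 0.97 in spleen. Blood and bone marrow thus had the lowest ratios, without overlap with other sites. They also had the highest summed TPM of the 14 myeloid markers, given above. The 2 orders did not match further. Bone marrow had a higher mean sum than blood (47772 against 26984 TPM) but also the higher ratio. Liver, with a mean sum of 283 TPM, had lower ratios than spleen (787) and lung (1776). All 14 markers reached a mean of 1 TPM in blood, bone marrow, spleen and lung, 13 did in liver and 8 in lymph node, and none was at 0 in all 3 libraries of a site. Itgam, the alpha M partner of Itgb2, averaged 200 ± 2.65 TPM in blood (SD, n = 3). In bone marrow it averaged 113 ± 2.06, and at most 7.83 ± 0.97 at the other sites. The part of myeloid RNA in the Itgb2 level was not tested.

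**Figure D2:**
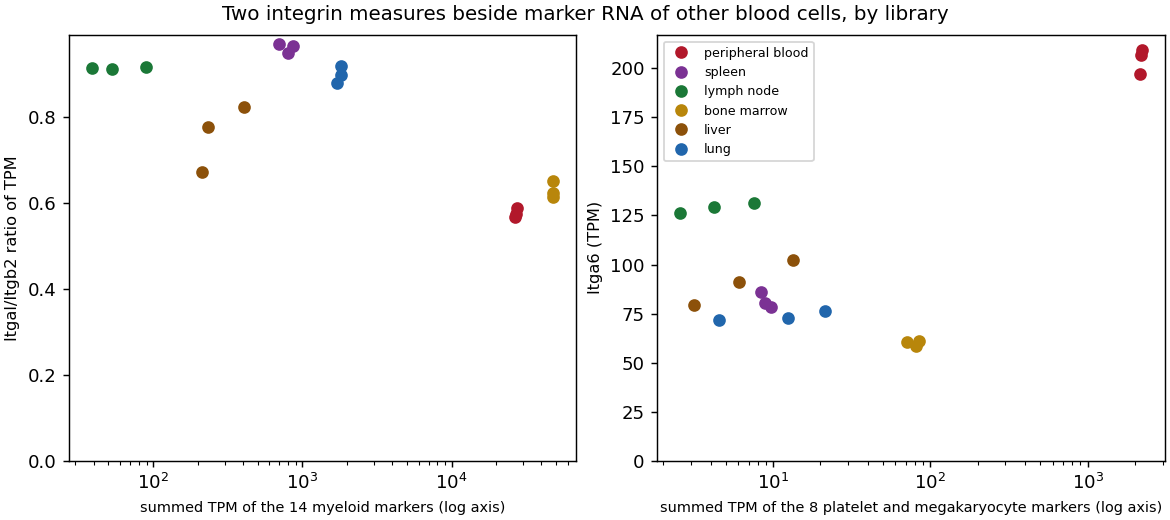
Left, the Itgal to Itgb2 ratio of TPM against the summed TPM of 14 myeloid markers (log axis). Right, Itga6 in TPM against the summed TPM of 8 platelet and megakaryocyte markers (log axis). Each dot is 1 library, coloured by site. Blood and bone marrow lie lowest at left, and blood lies highest on both axes at right.

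Itgav (ENSMUSG00000027087, chromosome 2, 83724397 to 83806916) codes alpha V, which joins beta 8 and several other beta chains. Lung read 105, 120 and 107 TPM and liver 45.5, 64.3 and 57.1. Blood read 28.3, 23.4 and 25.5 TPM, lymph node 28.5, 23.9 and 24.0, spleen 25.7, 23.3 and 18.1, and bone marrow 20.8, 26.1 and 19.99. Lung and liver each stood clear of the other sites, and the other 4 sites overlapped. Lung exceeded liver by 0.99 on the log2 scale (SE 0.15, limma adjusted p 0.000109) and the other sites by 2.06 to 2.27, all called. None of the 6 pairs among blood, lymph node, spleen and bone marrow was called (lymph node minus spleen 0.19, 95% interval -0.13 to 0.51). On the T cell scale, blood was called above spleen (1.29), lymph node (1.26) and bone marrow (0.88), and its difference from liver was no longer called (-0.14, adjusted p 0.45). The summed TPM of 5 lung epithelium markers was highest in lung, at 222.5 to 297, with all 5 at a mean of 1 TPM or more. Elsewhere the sum was at most 14.2 TPM, where 1 of 5 reached 1 TPM and between 2 and 4 were at 0 in all 3 libraries. Epcam went the other way, with 4.02 ± 2.23 TPM in lung and 11.3 ± 4.61 in spleen, and Sftpb read 0, 0 and 4.0 TPM in lung. Scgb1a1, the club cell secretoglobin, had 225 ± 34.8 TPM in lung (SD, n = 3) and was at 0 in all libraries outside lung and spleen. The part of epithelial RNA in the Itgav level was not tested. Lung kept its place on the T cell scale, with 122 ± 6.35 scaled TPM (SD, n = 3) against 49.4 ± 9.25 in liver.

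Itgb8 (ENSMUSG00000025321, chromosome 12, 119158022 to 119238802) codes beta 8, which pairs with alpha V alone and serves TGF-beta activation. It was the scarcest of the 9 transcripts at every site. Spleen read 12.1, 11 and 9.89 TPM, liver 8.82, 9.83 and 11.9, and lymph node 10.4, 9.98 and 9.35. Lung read 7.61, 5.95 and 6.21 TPM, bone marrow 4.71, 4.60 and 4.77, and blood 1.20, 1.09 and 1.61. Spleen, liver and lymph node overlapped, and blood lay below every other library. Blood was lower than bone marrow by 1.31 (SE 0.16, limma adjusted p 1.28e-05) and than spleen by 2.39 (adjusted p 9.34e-09), and by 0.90 to 1.63 after scaling to T cell genes. Spleen, liver and lymph node were not told apart (spleen minus liver 0.11, 95% interval -0.24 to 0.46), nor were lung and bone marrow (0.41, 0.06 to 0.76, adjusted p 0.055), a pair that was called without liver replicate 1 or 3 or lung replicate 2 (adjusted p from 0.0391, and from 0.00895 to 0.163 over all alternatives). The calls of lymph node (0.53, adjusted p 0.0162) and liver (0.56, adjusted p 0.0153) above lung were lost without lymph node replicate 1 (adjusted p 0.0594) and liver replicate 3 (adjusted p 0.0529) in turn, in ranges over all alternatives from 0.0098 to 0.881 and from 0.00931 to 0.235.

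The partners alpha V and beta 8 did not share an order of sites. The Itgav to Itgb8 ratio was 1.83 to 2.74 over the spleen and lymph node libraries, 4.19 to 6.54 over bone marrow and liver, 13.8 to 20.1 in lung and 15.8 to 23.6 in blood. Blood and lung overlapped in this ratio. As deposited, blood had the lowest Itgb8 and lung the highest Itgav, and on the T cell scale blood Itgav was also called above spleen, lymph node and bone marrow. The Itgav to Itgb1 ratio was 0.283 to 0.327 in lung and at most 0.147 at the other sites.

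Itga6 (ENSMUSG00000027111, chromosome 2, 71745616 to 71858416) codes alpha 6, a laminin receptor chain carried by T cells and platelets. Blood read 209, 197 and 207 TPM, lymph node 131, 126 and 129, and liver 91.3, 79.6 and 102. Spleen read 80.4, 86.05 and 78.2 TPM, lung 72.8, 76.2 and 71.5, and bone marrow 60.2, 61.2 and 58.5. Blood was highest, lymph node second and bone marrow lowest, without overlap with other sites. Blood exceeded lymph node by 0.66 (SE 0.08, limma adjusted p 4.11e-06) and bone marrow by 1.75 (adjusted p 1.33e-10), and by 1.95 and 2.44 on the T cell scale. On that scale lymph node was no longer called above liver (0.18, adjusted p 0.121) or lung (0.16, adjusted p 0.119), and bone marrow was no longer called below spleen (adjusted p 0.978). As deposited, liver and spleen were not told apart (0.15, 95% interval -0.01 to 0.31), a pair that was called without liver replicate 2 (adjusted p 0.0126, and from 0.00617 to 0.528 over all alternatives), nor were spleen and lung (0.15, -0.02 to 0.31). The Itga6 to Itgb1 ratio was 0.699 to 0.765 in blood, 0.647 to 0.675 in lymph node, 0.343 to 0.371 in spleen, 0.196 to 0.214 in lung, and 0.113 to 0.152 over bone marrow and liver. Platelet RNA stood highest in blood too, with all 8 markers at a mean of at least 1 TPM, as they were in no other site. Lymph node, with the second highest Itga6, had a summed 2.57 to 7.59 TPM of these markers, 3 of 8 at 1 TPM and 2 at 0 in all 3 libraries. The part of platelet RNA in the Itga6 level was not tested.

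**Figure D3:**
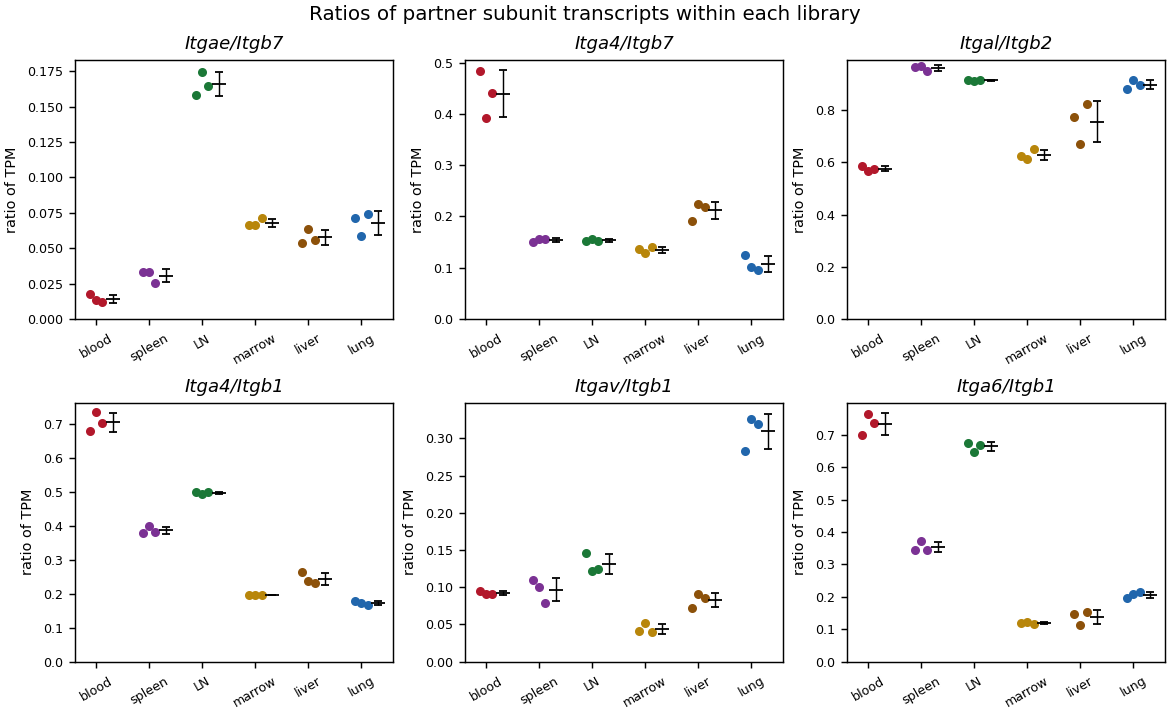
Ratio of TPM of 6 pairs of partner subunits (vertical axis, from 0) in the 3 libraries of each site (dots), with the mean and SD beside them. Itgae to Itgb7 is highest in lymph node, Itga4 to Itgb7 and Itga4 to Itgb1 in blood, Itgav to Itgb1 in lung, and Itgal to Itgb2 is lowest in blood.

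The series sets blood against the other sites, and the 5 comparisons share the 3 blood libraries. Against spleen, 4 of the 9 integrin genes were higher in blood and 3 lower, where 20.1% and 15.3% of all genes were called in these directions. Against lymph node, 4 were higher and 4 lower (16.4% and 21% of all genes). Against bone marrow, 4 were higher and 4 lower (13% and 18.8%), against liver 4 and 5 (23.3% and 16.1%), and against lung 4 and 5 (26.4% and 17.3%). On the T cell scale, which raised blood for most genes, the counts were 7 higher and 2 lower against spleen (62.7% and 1.86% of all genes) and 7 and 2 against lymph node (62.8% and 1.42%). They were 5 and 2 against bone marrow (41.1% and 6.37%), 5 and 3 against liver (63.1% and 4.5%), and 6 and 3 against lung (52.6% and 7.53%). Itgb7, Itgal and Itgav were the genes that joined the higher ones against spleen and lymph node. As deposited, Itga4, Itgb2 and Itga6 were higher in blood in all 5 comparisons, and Itgae, Itgb7 and Itgb8 lower in all 5. For Itgb1, blood stood above lymph node and spleen and below lung, liver and bone marrow. On the T cell scale, the lower calls of Itgae and Itgb8 and the higher calls of Itga4, Itgb2 and Itga6 all held. Those of Itgb7 did not, as given above. The median log2 difference of the 9 genes was 0.21 against spleen, 0.02 against lymph node, 0.21 against bone marrow, -0.78 against liver and -0.36 against lung, where the medians of all genes were 0.00, -0.15, -0.11, 0.07 and 0.12.

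Among the other 5 sites, Itgav was called higher in lung than at each of the rest. Lung was higher in 1 gene, Itgav, and lower in 7 against liver, where 17.3% and 17.6% of all genes were called in these directions. Against lymph node, lung was higher in 2 genes, Itgb1 and Itgav, and lower in 6 (14.9% and 27.4%). Against bone marrow it was higher in Itgav and Itga6 and lower in 6 genes (13.2% and 30.3%), and against spleen higher in 3 and lower in 4 (18% and 22.8%). Liver exceeded spleen in 5 genes and was lower in Itgal and Itgb2 (14% and 17.3%), exceeded lymph node in 4 and was lower in 4 (9.45% and 21.6%), and exceeded bone marrow in 5 and was lower in Itgal and Itgb2 (9.36% and 25.1%). Itga4, Itgb1 and Itgav were called higher in liver than in each of spleen, lymph node and bone marrow. Spleen was above lymph node in Itgb1 alone and below it in 4 genes (4.44% and 9.87%), and above bone marrow in 3 and below it in 4 (5.92% and 18.2%). Lymph node was above bone marrow in 4 genes and below it in Itgb7 and Itgb1 (8.89% and 13.7%).

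Several of these counts depended on the scale. Scaled to T cell genes, lung was higher in 1 gene and lower in 4 against liver (28.2% and 9.98% of all genes), higher in 3 and lower in 3 against lymph node (30.6% and 9.11%), higher in 3 and lower in 5 against bone marrow (14.1% and 28.6%), and higher in 5 and lower in 2 against spleen (30.8% and 10.4%). Liver was higher in 6 genes and lower in 1 against spleen (17.4% and 11.1%), higher in 4 and lower in 3 against lymph node (15.9% and 7.96%), and higher in 4 and lower in 4 against bone marrow (4.95% and 37.5%), where Itgb1 was no longer called. Spleen was above lymph node in 1 gene and below it in 3 (5.41% and 3.32%), and above bone marrow in Itgb8 alone and below it in 7 genes (2.33% and 41.4%). Lymph node was above bone marrow in Itgae and Itga6 and below it in Itgb7, Itga4, Itgb1 and Itgb2 (1.88% and 40.9%). Itgav remained higher in lung than at each other site.

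**Figure D4:**
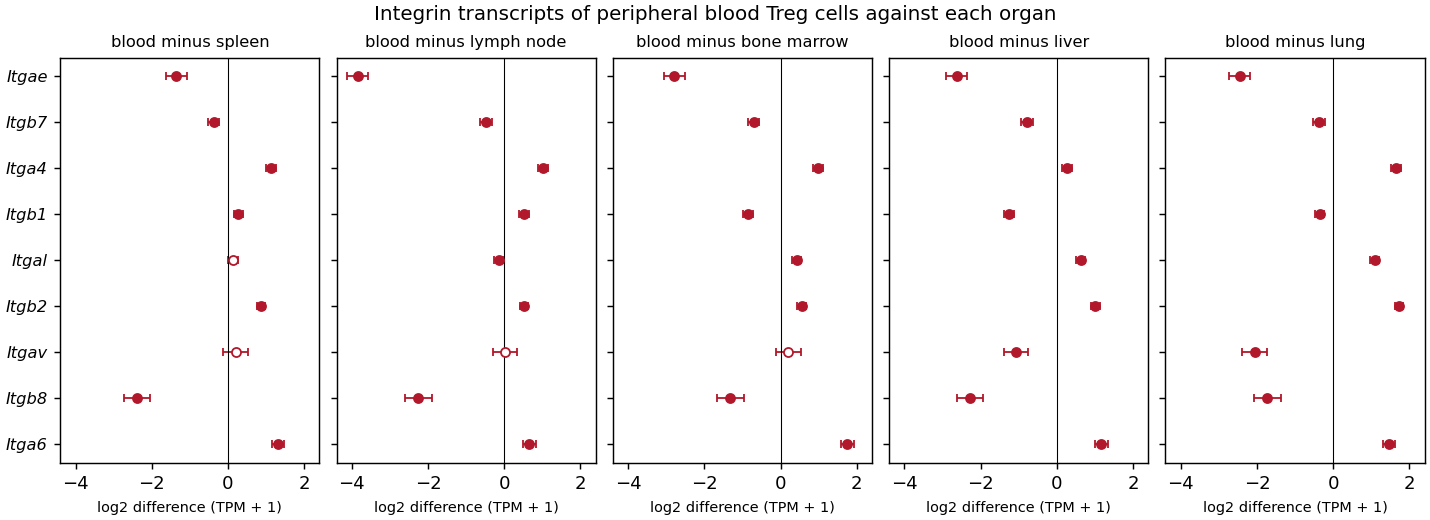
Log2 difference of TPM + 1 between peripheral blood and each other site (horizontal axis) for the 9 integrin genes, with 95% intervals from limma. Filled dots are called and open dots are not. Itgae and Itgb8 lie left of 0 and Itga4, Itgb2 and Itga6 right of 0 in all 5 panels.

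**Figure D5:**
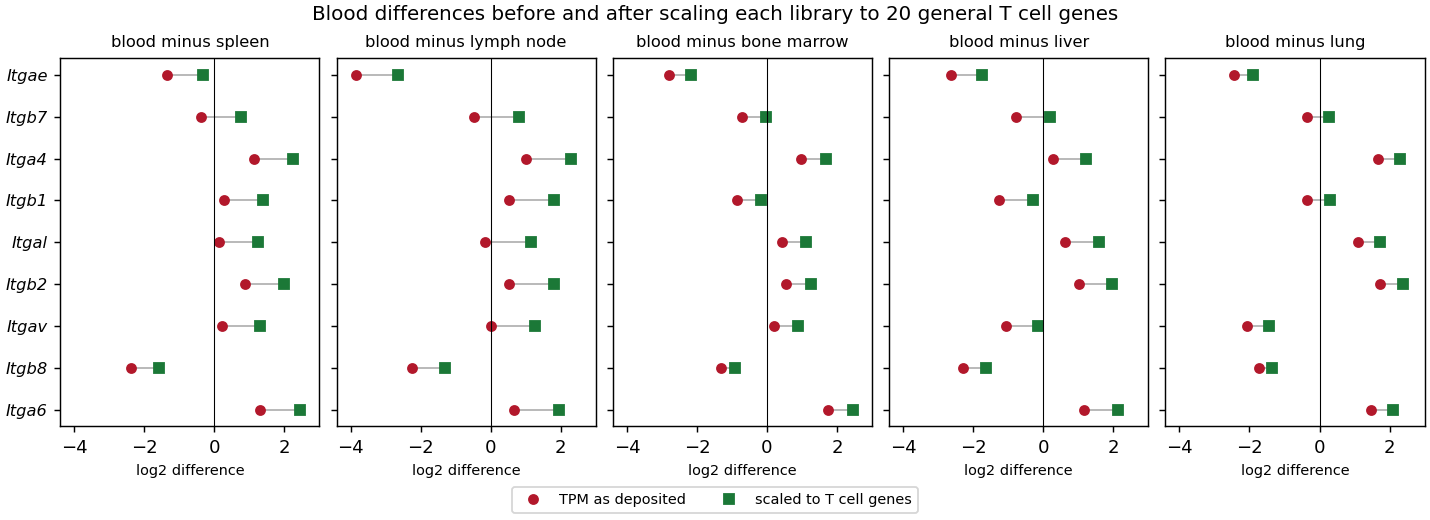
The same differences from TPM as deposited (circles) and after scaling each library to 20 general T cell genes (squares). The shift is to the right in every panel, Itgb7 crosses 0 against spleen, lymph node, liver and lung, and Itgae and Itgb8 stay left of 0.

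The T cell gene factors were 0.569 to 0.589 in blood, 0.891 to 0.944 over lung and bone marrow, and 1.11 to 1.42 in liver, spleen and lymph node, so T cell genes made up the smallest share of the RNA in blood. This scaling moved the median of all genes by 0.91 against spleen, from 0.00, and left 32 of the 45 blood combinations of gene and site with the same direction and call.

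The other 18 integrin subunit genes include those of platelets and myeloid cells. They summed to 622 to 660 TPM in blood and 281 to 294 in bone marrow, against 48.4 to 165 TPM over the other 4 sites, and the 9 T cell integrins made up 75.7% to 76.6% of integrin TPM in blood and 96.3% to 97.5% over spleen and lymph node. Of the 18, 15 passed the filter and 12 were called by the F test, against 68% of all genes. Against spleen 9 were higher in blood and none lower (20.1% and 15.3% of all genes), and against lymph node 10 were higher and 1 lower (16.4% and 21%). After T cell scaling these counts were 10 and 0 (62.7% and 1.86% of all genes), and 11 and 0 (62.8% and 1.42%). The higher calls were then 66.7% of the 15 against spleen and 73.3% against lymph node. Itga2b, the platelet alpha IIb, had 216 ± 9.86 TPM in blood (SD, n = 3) and at most 13.0 ± 1.03 elsewhere. Itgax, a dendritic cell and macrophage chain, had 39.7 ± 3.20 TPM in blood and 26.5 ± 8.73 in lung, and at most 5.80 ± 0.84 elsewhere. Itgb2l, a beta 2-like gene, had 75.9 ± 3.87 TPM in bone marrow and at most 2.54 ± 0.42 elsewhere.

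Genes that switch integrins on or link them to the cytoskeleton numbered 32, of which 30 passed the filter and 27 were called by the F test, against 68% of all genes. In blood 16 were higher and 5 lower than in spleen (20.1% and 15.3% of all genes), 13 and 9 against lymph node (16.4% and 21%), 11 and 5 against bone marrow (13% and 18.8%), 17 and 6 against liver (23.3% and 16.1%), and 18 and 8 against lung (26.4% and 17.3%). After T cell scaling the counts were 28 and 0 against spleen, 27 and 0 against lymph node, 23 and 1 against bone marrow, 26 and 2 against liver, and 21 and 4 against lung, beside the shares of all genes on that scale given above. The 4 with the widest range were Parvb, Zyx, Vcl and Cd151. Parvb, the beta parvin that binds integrin-linked kinase, had 148 ± 13.7 TPM in blood (SD, n = 3) and at most 6.62 ± 2.21 elsewhere. Zyx, the focal adhesion protein zyxin, averaged 492 ± 25.7 TPM in blood and was lowest in lung, with 48.4 ± 8.32. Vcl, vinculin, had 25.8 ± 0.88 TPM in bone marrow, 20.7 ± 2.04 in blood and at most 5.03 ± 1.00 elsewhere. Cd151, a tetraspanin that binds laminin receptors, had 33.4 ± 2.92 TPM in blood and 6.47 ± 3.25 in liver. All 4 were highest in the blood or bone marrow libraries, where myeloid and platelet RNA stood high, and the part of that RNA was not tested.

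Of 13 ligands of these integrins, 9 passed the filter and 8 were called by the F test, against 68% of all genes. Fn1, fibronectin, had 529 ± 10.7 TPM in blood (SD, n = 3) and 46.5 ± 3.96 in bone marrow, and 0.61 ± 0.66 in lymph node. Myeloid and platelet RNA also stood high in blood and bone marrow, and its part in the Fn1 level was not tested. Spp1, osteopontin, had 45.7 ± 10.2 TPM in lung and 33.2 ± 2.91 in bone marrow and was listed at 0 in all 3 liver libraries. Vcam1 had 8.97 ± 0.52 TPM in bone marrow and 8.28 ± 1.10 in spleen, and F11r, the junctional adhesion molecule that binds LFA-1, 6.26 ± 0.86 in blood and 3.69 ± 0.38 in lung.

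Of 20 genes of TGF-beta activation and signalling, the pathway that alpha V and beta 8 serve, all 20 passed the filter and all 20 were called by the F test, against 68% of all genes. In lung 14 were higher than in spleen and none lower, where 18% and 22.8% of all genes were called so. Against blood, 11 were higher and 6 lower in lung (17.3% and 26.4%). After T cell scaling, lung was higher in 17 and lower in none against spleen (30.8% and 10.4% of all genes), and higher in 6 and lower in 8 against blood (7.53% and 52.6%), so the balance against blood turned. Lrrc32, or GARP, which holds latent TGF-beta on the Treg surface for alpha V beta 8, had 268 ± 21.2 TPM in lung (SD, n = 3), 88.8 ± 0.78 in lymph node, 88.7 ± 2.52 in liver, 45.6 ± 2.11 in spleen, 39.1 ± 2.10 in blood and 17.2 ± 0.75 in bone marrow. Lung, the site of highest Itgav, was also that of highest Lrrc32, above liver by 1.58 on the log2 scale (limma adjusted p 2.74e-10). Tgif1, a repressor of Smad targets, had 289 ± 41.6 TPM in lung and 242 ± 23.5 in liver against 46.2 ± 2.44 in lymph node. Ltbp1, a matrix protein that binds latent TGF-beta, had 20.9 ± 0.41 TPM in blood and at most 0.50 ± 0.76 elsewhere, and Tgfb2 had 4.26 ± 0.98 in blood and was listed at 0 in all 3 liver libraries. Platelet RNA was highest in blood too, and its part in the Ltbp1 and Tgfb2 levels was not tested.

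For the 8 integrin genes with at least a 2-fold range of site means, the genes of most similar pattern were sought among 9402 candidates by Pearson r over the 6 site means of log2(TPM + 1). With 6 points whose libraries share depth and composition, r describes the pattern only. Itgav was most like Acsl4 (r = 0.997), Vps37b (0.996) and Birc2 (0.994), and Vps37b ran from 56.2 TPM in bone marrow to 1164 in lung. Itgb1 was most like Cd69, an early activation and tissue retention receptor (0.989), with means from 84.0 TPM in lymph node to 354 in liver, then Tpi1 (0.985) and Lars2 (0.984). Itga6 was most like Bicd2 (0.976), with means of 42.6 TPM in blood, 29.8 in lymph node and 19.4 in bone marrow, and Ms4a4b (0.967) was also among its nearest. Itgae was most like Letm1 (0.989), Fam102a (0.988) and Med15 (0.987), whose ranges were far narrower (Letm1 25.6 TPM in blood to 46.6 in lymph node). Itga4 led with Ifi209 (0.990), Itgal with Smc6 (0.998), Itgb2 with Tmem164 (0.999) and Itgb8 with Rnf121 (0.994).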

How the data were processed

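Poly(A) RNA of sorted Treg cells was measured in 18 libraries. The authors deposited 1 table of TPM values per library, with 2 decimals and sums of 999999.27 to 1000000.62, per the file headers and values. The submitters' processing notes name STAR, RSEM and mm10, without versions or roles. The annotation and strand setting are not given in the sources used here, and TPM keeps no read depth. No 2 tables were identical.

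Symbols and gene positions came from GENCODE M21 (GRCm38), which matched 55141 of 55487 IDs. Genes with a group mean of at least 1 TPM (16694) were fitted with limma 3.58.1 in R 4.3.3 on log2(TPM + 1), with 1 mean per site, no covariate, and trended, robust eBayes. All 15 pairs of sites and an F test were computed, each adjusted over all genes. The fit was tested on simulated data. As the files hold TPM, no count test was run. In each of the 4 pathway lists, the 4 genes with the widest range were named. For each integrin gene with a range of at least 2-fold, the genes of most similar pattern were sought, and 1 of them is not reported here. Marker lists covered 12 cell types. The genes and lists were chosen with earlier results of these data known. Alternatives were another pseudocount (0.1), no filter, 3 scalings, library weights, a replicate block and leaving out each library.

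Marker lists other than the myeloid and the platelet list, as the range of summed mean TPM over sites: B cell 72.0 to 532, plasma cell 21.7 to 169, cytotoxic 91.0 to 562, erythroid 74.4 to 11468, hepatocyte 0 to 14.5, lung epithelium 1.73 to 253, endothelium and stroma 81.7 to 125, dendritic cell 2.54 to 54.8, Treg 626 to 2779 and general T cell 3996 to 9794.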

Additional observations from a re-analysis of the deposited data

How the results depend on the processing

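The F test called all 9 genes under every alternative run. The 112 calls over 15 pairs and the total numbers called against blood, both directions together, stayed within 1.5 times their values under every alternative, including the fits that each left out 1 library. The numbers per direction did not: on the T cell scale those against blood moved by up to 2 times, from 4 lower to 2 against lymph node and bone marrow. Under the other alternatives the numbers against blood moved by at most 1 gene in either direction. Some between other sites moved further. Genes higher in liver than lung fell from 7 to as few as 5, and those higher in bone marrow than lung from 6 to 4. Genes lower in spleen fell from 4 to as few as 2 against both bone marrow and lymph node. Of the 112 calls, 105 held without any single library and 79 held with their direction under all alternatives. Scaling to T cell genes kept 94 of 135 combinations in direction and call, added 15 calls, took 14 with the direction kept and turned 12, of which 7 were called in the new direction and 5 were not, so that 19 calls were lost in all. Turned were Itgb7 in blood against spleen (0.75), lymph node (0.80), liver (0.18) and lung (0.27), Itgal in blood against lymph node (1.14), and Itgb1 in blood against lung (0.29). Itgal in spleen against bone marrow (-0.14) was likewise called in the new direction. Near 0 and not called were Itgal in lymph node against bone marrow (-0.0227), Itgb2 in spleen against liver (-0.0228), Itga4 (-0.0022) and Itgb8 (-0.0483) in lymph node against lung, and Itga6 in liver against lung (-0.0156). Scaling by the median ratio turned Itgal in blood against lymph node (0.0946). The cause was not tested. Correlations of same-numbered deviations ran from -0.034 to 0.030 over 45 pairs, none over 0.1, with a mean of 0.0062 against -0.0031 for different numbers. Of 18 libraries, 9 correlated best with their own number. These values cannot settle whether same-numbered libraries shared animals, and the main fit assumed no pairing. With the replicate number as a block, 110 of 135 combinations were called and 9 genes by the F test, the calls lost being Itgal in blood against lymph node and Itgb2 in spleen against liver. The fits without blood, and without blood and bone marrow, were chosen after seeing the data and called 9 genes each, against 58.8% and 48.1% of all genes. Itgb8, at 1.09 to 12.1 TPM, is the gene whose level is nearest the pseudocount.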
